A study of Mus musculus with 6 samples.

Results

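The endoplasmic reticulum (ER) of the liver cell folds the secreted plasma proteins, and 40 genes of its folding and quality-control machinery were followed here in mouse liver RNA. They were taken by symbol and comprise chaperones, lectins and thiol oxidoreductases of the ER lumen, the components of ER-associated degradation (ERAD) and the sensors of the unfolded protein response (UPR). Each of the 40 symbols had a single entry among the 55401 genes of the deposited table, and all 40 were among the 18931 genes that passed the filter on low counts. The samples were whole livers of 6 male mice that entered the study at 8 weeks of age and were kept for 5 weeks on MCD, an abbreviation that the labels do not spell out and that commonly denotes a diet lacking methionine and choline. Controls were 3 mice of the genotype Prdx1(lox/lox), and the other 3 had the genotype Prdx1(lox/lox);Alb-cre, in which Cre recombinase is driven by the albumin promoter of hepatocytes. All 6 animals carried the floxed alleles and received the same diet. No group with Cre alone was analysed here, so effects of the transgene and of the loss of peroxiredoxin 1 cannot be told apart. The labels do not say whether the mice were littermates or how the livers were sampled.

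Proteins enter the ER unfolded and are bound by the chaperone BiP and its cochaperones, by the lectins calnexin and calreticulin, which hold glycoproteins, and by protein disulfide isomerases, which form and rearrange disulfide bonds. Chains that fail to fold are passed through a membrane complex built around SEL1L and the ubiquitin ligase HRD1 and are degraded in the cytosol, the process called ERAD. When unfolded chains accumulate, the membrane sensors IRE1, ATF6 and PERK start the UPR, which raises transcription of chaperone and ERAD genes and lowers protein synthesis. In liver these pathways are used heavily because hepatocytes secrete albumin, lipoproteins and clotting factors.

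Prdx1 itself was at 644, 570 and 663 CPM in the controls and at 78.7, 111 and 75.4 CPM in the Alb-Cre livers, 14.1% of the control mean. CPM are deposited counts divided by library size, after scaling of the libraries with TMM factors, which lay between 0.8693 and 0.8875 in the controls and between 1.096 and 1.159 in the Alb-Cre livers. The libraries held 58790874 to 78291273 deposited counts.

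The ER genes were lower in the Alb-Cre livers across every role. In the quasi-likelihood test of edgeR, with p adjusted by Benjamini-Hochberg over all tested genes, 36 of the 40 fell and 0 rose at an adjusted p below 0.05. Of all tested genes, 18.0% fell and 19.9% rose, but the 40 genes were chosen with earlier results of these data known. At an unadjusted p below 0.05 the count was 37 lower and 0 higher, and DESeq2 also called 36 lower, the same 36 genes, and 0 higher (16.5% and 19.3% of all genes it tested). For these 36 genes every Alb-Cre liver lay below every control, whereas 24.2% of all tested genes were separated in that direction. The median log2 fold change of the 40 genes was -0.82, beside 0.05 for all tested genes. At least 2-fold reductions were found for 9 of the 40 and for 3.83% of all tested genes.

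The size of the fall depended on the scaling of the libraries. With library sizes alone the median of all genes moved to 0.41 and that of the 40 genes to -0.44. A change of scaling shifts all genes by nearly the same amount. The distance between these medians, -0.86 with either scaling, could therefore hardly change. In limma on log2 of the deposited FPKM plus 0.5 the medians were 0.26 and -0.45, a distance of -0.71. With library sizes alone 24 of the 40 were called lower (6.6% of all tested genes) and 1 higher (34.1%). With limma on log2 of the deposited FPKM plus 0.5 these counts were also 24 lower (7.15%) and 1 higher (34.1%), and 24 genes were called lower in all 3 of these fits. The gene called higher was Dnajc10 in both cases. The 12 genes that lost the call with library sizes alone were Hspa5, Calr, Canx, Pdia3, Sel1l, Derl2, Vcp, Os9, Selenok, Xbp1, Ern1 and Eif2ak3. Unless another scaling is named, fold changes below use TMM factors.

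**Figure D1:**
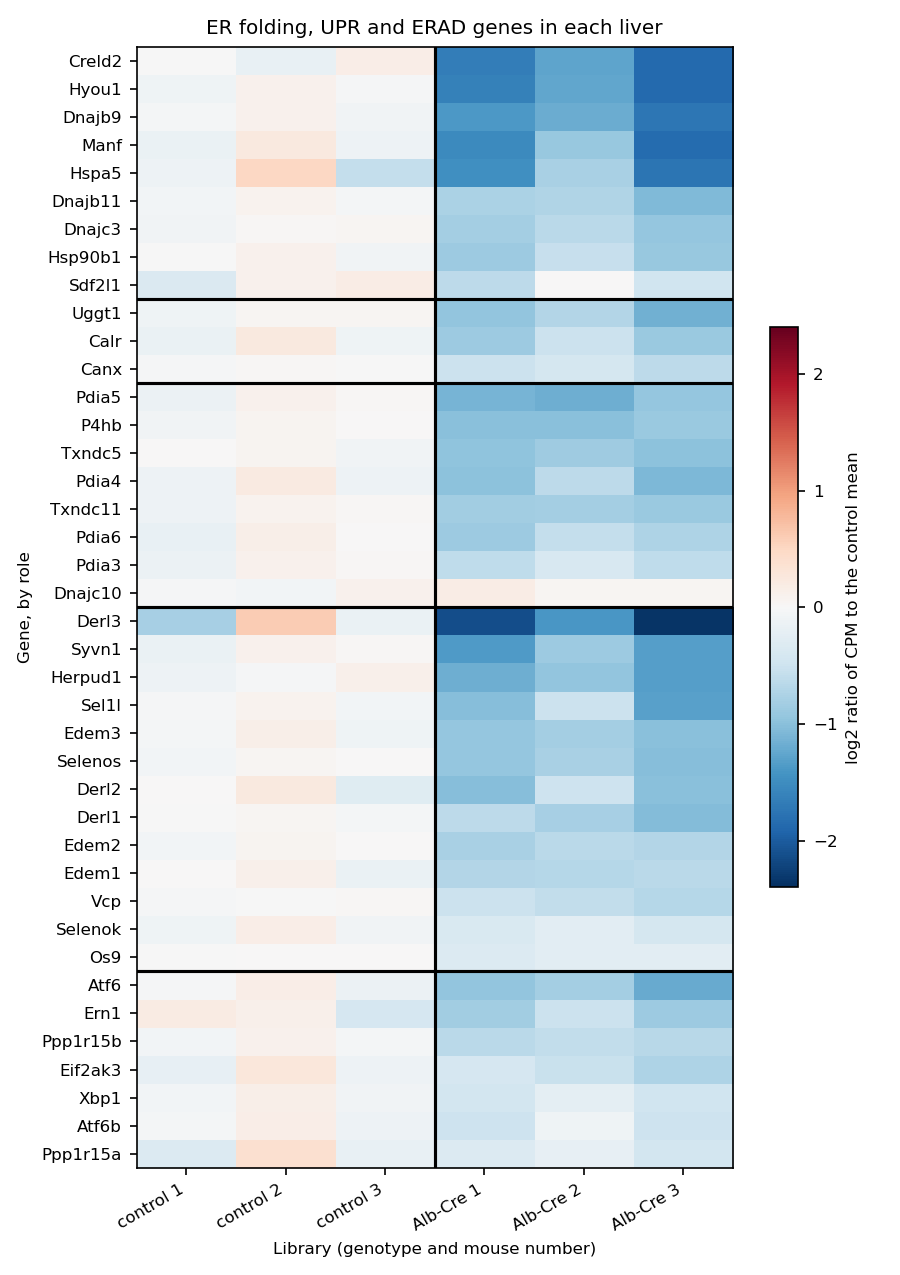
Heat map of the 40 genes (rows, grouped by role as chaperones, lectins, thiol oxidoreductases, ERAD and sensors) in the 6 livers (columns), coloured by the log2 ratio of CPM to the mean of the controls. The Alb-Cre columns are blue for nearly all rows, with medians over the 40 genes of -0.87, -0.65 and -0.92 in livers 1, 2 and 3.

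The promoters of these genes are known for the ER stress response element, a sequence bound by ATF6 and XBP1 together with NF-Y. They are shown here as a description. The RefSeq promoter windows (GRCm38.p6, 250 bases before and 50 bases after the start site) were given for 35 of the 40 genes (all but Hyou1, Derl1, Atf6, Ppp1r15b and Manf) and for 27025 genes in all. The element, CCAAT and CCACG with 9 bases between them, was searched on both strands. It was found in 9 of the 35 and in 0.137% of all genes with a window. The share among the 35 is a property of the chosen genes and not a result of the RNA data. Capitals mark the element in the stretches below, written 5′ to 3′ on the strand of the gene, so that an element on the opposite strand reads as its reverse complement.
Hspa5, chr2:34772020-34772048, plus strand: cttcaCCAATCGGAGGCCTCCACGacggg
Hsp90b1, chr10:86705518-86705671, minus strand: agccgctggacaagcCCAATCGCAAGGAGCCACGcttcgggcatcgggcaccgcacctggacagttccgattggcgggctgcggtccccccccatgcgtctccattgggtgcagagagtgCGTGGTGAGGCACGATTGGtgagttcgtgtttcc
Calr, chr8:84847060-84847108, minus strand: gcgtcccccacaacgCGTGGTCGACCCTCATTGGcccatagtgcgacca
Canx, chr11:50325785-50325833, minus strand: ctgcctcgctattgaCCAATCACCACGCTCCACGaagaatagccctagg
Pdia6, chr12:17266476-17266524, plus strand: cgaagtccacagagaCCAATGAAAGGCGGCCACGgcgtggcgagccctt
Creld2, chr15:88819505-88819553, plus strand: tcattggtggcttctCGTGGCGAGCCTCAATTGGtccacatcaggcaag
Dnajc3, chr14:118937812-118937860, plus strand: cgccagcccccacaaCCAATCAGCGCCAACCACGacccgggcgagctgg
Syvn1, chr19:6046517-6046565, plus strand: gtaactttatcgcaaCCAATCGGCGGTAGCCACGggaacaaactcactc
Derl3, chr10:75893227-75893275, plus strand: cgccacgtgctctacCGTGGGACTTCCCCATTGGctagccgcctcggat

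Hsp90b1 held 2 copies, on opposite strands, and the other 8 genes held 1. The first base of the element lay between 44 bases (Syvn1) and 212 bases (Hsp90b1) before the RefSeq start site. The Hspa5 stretch, however, overlaps an annotated exon and lies downstream of the deposited start of that gene, base 34771970. A shorter form, ATTGG and CCACG with 1 base between them, was found in Herpud1 and Dnajb11 and in 0.0444% of all genes. Its first base lay 52 bases before the RefSeq start site in Herpud1 and 7 bases after it in Dnajb11. Only the Herpud1 stretch, which lies before the start site, is shown. Herpud1 was among the genes with at least 2-fold reductions.
Herpud1, chr8:94386362-94386402, plus strand: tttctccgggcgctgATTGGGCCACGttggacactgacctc

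All 9 genes with the long element fell, with a median log2 fold change of -0.79. Of the 26 genes with a window and no exact copy, 22 fell, with a median of -0.78. Outside the 40 genes, 13 tested genes held the long element. Of these, 4 fell (18.0% of all tested genes) and 4 rose (19.9%), with a median of -0.03. A match is a description of the letters in the window, and nothing is drawn from it about binding. The letters TGACGTGG, the core of a UPR element bound by XBP1, were found in Txndc5, Txndc11 and Vcp and in 0.714% of all genes. The letters TGATGNAA, part of the element bound by ATF4 with C/EBP factors, were found in Herpud1 and Txndc5 and in 4.51% of all genes.

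Chaperones and cochaperones had the lowest median of the roles. They numbered 9, of which 8 fell, 0 rose and 1 missed the threshold, and their median log2 fold change was -1.28. Creld2, an ER stress-inducible protein with thiol activity, was at 69.2, 61.6 and 77.2 CPM in the controls and at 21.9, 28.8 and 19.0 CPM in the Alb-Cre livers. All Alb-Cre values lay well below the lowest control, and the gene fell by 1.58 ± 0.17 on the log2 scale (SE, adjusted p = 0.000409). Hyou1, the large nucleotide exchange factor of BiP, was at 252, 291 and 266 CPM against 88.1, 113 and 74.4 CPM. The groups were far apart here too, with a fall of 1.55 ± 0.16 (adjusted p = 0.000314). Dnajb9, the cochaperone that restrains IRE1, was at 172, 191 and 168 CPM against 67.8, 78.0 and 52.8 CPM and fell by 1.42 ± 0.15 (adjusted p = 0.000356).

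Manf, a BiP-binding factor that is also secreted, was at 171, 226 and 176 CPM in the controls and at 66.0, 102 and 52.9 CPM in the Alb-Cre livers. In both groups liver 2 was the highest, and the gene fell by 1.38 ± 0.24 (adjusted p = 0.00330). Hspa5 encodes BiP, the Hsp70 chaperone of the ER that also holds the UPR sensors inactive. It was at 1124, 1718 and 820 CPM against 439, 708 and 361 CPM. Liver 2 again stood highest in both groups, and the spread within groups was wide (means of 1221 ± 457 CPM against 503 ± 182 CPM, SD, n = 3 each). Hspa5 fell by 1.28 ± 0.32 (adjusted p = 0.0164), but the call was lost without Alb-Cre liver 1 or 3, with adjusted p of 0.0522 to 0.0666 in edgeR.

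Hsp90b1, the Hsp90 chaperone of the ER, was at 960, 1042 and 910 CPM against 528, 661 and 518 CPM. Although its controls lay near those of Hspa5, its groups were tighter and its fall was smaller, at 0.77 ± 0.12 (adjusted p = 0.00179). The cochaperones Dnajb11 and Dnajc3 fell by 0.84 ± 0.11 and 0.79 ± 0.10. Sdf2l1, which forms a complex with Dnajb11, did not pass. It was at 17.2, 23.7 and 24.9 CPM in the controls and at 14.1, 22.1 and 15.8 CPM in the Alb-Cre livers, with overlapping groups and a log2 fold change of -0.34 ± 0.21 (adjusted p = 0.251), or 0.04 with library sizes alone.

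**Figure D2:**
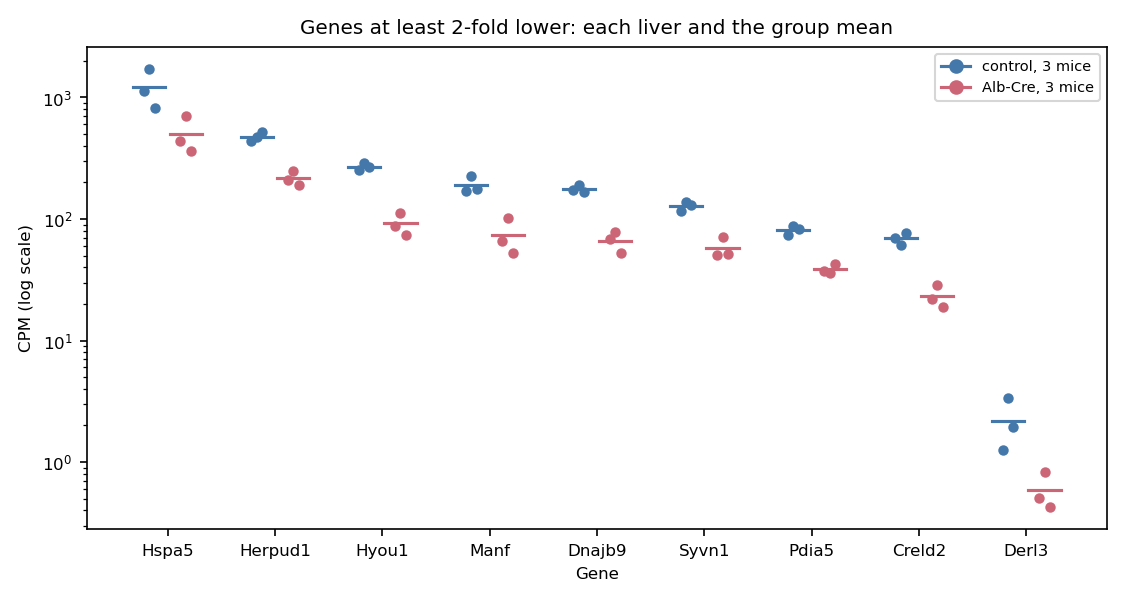
CPM on a log axis for the 9 genes with at least 2-fold reductions, with 1 point per liver and a bar at the mean of each group of 3 mice. The points of the groups are separated for each gene; Hspa5 and Derl3 have the widest spread within a group.

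The lectin cycle fell in all 3 of its genes, with a median of -0.75. Uggt1, the glucosyltransferase that senses misfolded glycoproteins and returns them to the lectins, was at 149, 167 and 166 CPM against 83.2, 98.6 and 72.2 CPM and fell by 0.92 ± 0.12 (adjusted p = 0.00111). Calreticulin (Calr), the soluble lectin, was at 959, 1267 and 1002 CPM against 588, 748 and 581 CPM and fell by 0.75 ± 0.15 (adjusted p = 0.00530). Its membrane-bound relative calnexin (Canx) was at 391, 406 and 393 CPM against 277, 296 and 257 CPM. Canx fell by 0.52 ± 0.08 (adjusted p = 0.00216), and by this estimate its fall was the smallest of the 3; the differences between the genes were not tested.

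Among thiol oxidoreductases 7 of 8 fell and 0 rose, and the median was -0.87. P4hb encodes the abundant protein disulfide isomerase, which is also a subunit of collagen prolyl 4-hydroxylase and of the microsomal triglyceride transfer protein. It was at 2571, 2842 and 2718 CPM against 1350, 1344 and 1455 CPM. The replicates were close, and the Alb-Cre mean was 51.0% of that of the controls (a fall of 0.97 ± 0.08, adjusted p = 0.000165). Pdia5, another isomerase, which has been linked to activation of ATF6, fell by 1.07 ± 0.11 from 74.2, 87.6 and 82.7 CPM to 37.6, 36.1 and 42.9 CPM.

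Txndc5, Pdia4, Txndc11 and Pdia6 fell by 0.94 ± 0.08, 0.88 ± 0.15, 0.85 ± 0.09 and 0.72 ± 0.12. Pdia3, the isomerase that works with the lectins, fell by 0.53 ± 0.10, from 501, 593 and 568 CPM to 361, 425 and 361 CPM. Dnajc10, a reductase that cleaves disulfides of ERAD substrates, was the exception in this role. It was at 62.8, 61.7 and 68.8 CPM in the controls and at 72.7, 66.2 and 66.4 CPM in the Alb-Cre livers. The groups overlapped, with a log2 fold change of 0.09 ± 0.09 (adjusted p = 0.484), while with library sizes alone it stood at 0.46 (adjusted p = 0.00723).

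All 13 ERAD genes fell with TMM factors, with a median of -0.82, although Os9 and Selenok were at 0.09 and 0.03 with library sizes alone. The complex that moves substrates through the membrane was among those that changed. Syvn1, which encodes the ligase HRD1, was at 116, 139 and 131 CPM against 50.5, 70.8 and 51.4 CPM and fell by 1.16 ± 0.15 (adjusted p = 0.000900). Its partner Sel1l was at 240, 258 and 233 CPM against 119, 171 and 99.0 CPM. Alb-Cre liver 2 stood between the other Alb-Cre livers and the controls, and Sel1l fell by 0.91 ± 0.19 (adjusted p = 0.00713). Herpud1, a stress-inducible scaffold of this complex, was at 440, 469 and 521 CPM against 211, 247 and 192 CPM and fell by 1.14 ± 0.12 (adjusted p = 0.000361).

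The derlins, membrane proteins of the same complex, fell as well. Derl1 was at 345, 359 and 335 CPM against 223, 199 and 169 CPM, a fall of 0.81 ± 0.11, and Derl2 fell by 0.82 ± 0.18. Derl3 had the largest fitted fall of the 40 genes (1.90 ± 0.49, adjusted p = 0.0177) but was measured at 1.25, 3.35 and 1.95 CPM in controls against 0.501, 0.827 and 0.425 CPM. Its call was lost without control 2, Alb-Cre liver 1 or Alb-Cre liver 3 (adjusted p of 0.0600 to 0.0643 in edgeR). Derl3 is also expressed by plasma cells. Among the 13 tested markers of B and plasma cells, 5 were called higher (19.9% of all tested genes) and 2 lower (18.0%). Tnfrsf17 was at 0 in all libraries. The summed FPKM of the markers was 46.1 to 61.6 in the controls and 92.1 to 105 in the Alb-Cre livers. Their part in the Derl3 result was not tested.

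The mannosidase-like proteins that mark glycoproteins for disposal fell, with Edem3, Edem2 and Edem1 at -0.91 ± 0.10, -0.71 ± 0.08 and -0.68 ± 0.09. Selenos, a selenoprotein that links the complex to the cytosolic ATPase p97, was at 119, 129 and 124 CPM against 65.1, 72.1 and 61.3 CPM and fell by 0.91 ± 0.09. Vcp, which encodes p97 and serves many cytosolic processes besides ERAD, fell by 0.60 ± 0.08 (adjusted p = 0.00105). It was at 474, 480 and 491 CPM against 337, 321 and 299 CPM.

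The smallest falls of this role were those of the lectin Os9 and the selenoprotein Selenok, and both were sensitive to the libraries used. Os9 was at 313, 315 and 316 CPM against 252, 263 and 264 CPM, a log2 fold change of -0.28 ± 0.07 (adjusted p = 0.0174), or 0.09 with library sizes alone. Without Alb-Cre liver 1 its adjusted p was 0.0680. Selenok was at 63.9, 77.2 and 65.3 CPM against 53.6, 57.8 and 51.4 CPM, a log2 fold change of -0.34 ± 0.10 (adjusted p = 0.0343), or 0.03 with library sizes alone. Its call was lost without control 2 or without any of the Alb-Cre livers (adjusted p of 0.0507 to 0.108 in edgeR).

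Sensors and signalling genes of the UPR had the median closest to 0 among the roles, at -0.55, and 5 of 7 fell while 0 rose. Atf6, the sensor that is cut in the Golgi and becomes a transcription factor, was at 249, 283 and 232 CPM against 132, 146 and 110 CPM and fell by 0.98 ± 0.13 (adjusted p = 0.000927). Its relative Atf6b was at 46.0, 53.5 and 43.9 CPM against 33.9, 44.4 and 33.8 CPM. The highest Alb-Cre liver of Atf6b lay within the controls, and the gene did not pass (-0.36 ± 0.14, adjusted p = 0.0802, or 0.02 with library sizes alone).

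Ern1, which encodes the kinase and RNase IRE1, was at 249, 236 and 164 CPM against 121, 151 and 118 CPM. Control 3 lay close to the Alb-Cre livers, and the fall of 0.74 ± 0.17 (adjusted p = 0.0125) was no longer called without Alb-Cre liver 1 (adjusted p = 0.0553). Xbp1, whose mRNA is spliced by IRE1, was at 113, 131 and 111 CPM against 86.8, 101 and 85.0 CPM. It fell by 0.38 ± 0.11 (adjusted p = 0.0248), or stood at -0.01 with library sizes alone, and its call was lost without control 2, Alb-Cre liver 1 or Alb-Cre liver 3 (adjusted p of 0.0697 to 0.0939). Values per gene do not separate the spliced from the unspliced form of Xbp1, and RNA levels do not report the activity of the sensors.

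Eif2ak3, which encodes PERK, was at 61.6, 85.3 and 65.1 CPM against 53.5, 48.9 and 42.1 CPM and fell by 0.55 ± 0.15 (adjusted p = 0.0217). That call was lost without Alb-Cre liver 2 or 3 (adjusted p of 0.0604 to 0.0693). The phosphatase subunits that reverse the action of PERK differed in their spread. Ppp1r15b, the constitutive subunit, fell by 0.63 ± 0.08 from 132, 149 and 134 CPM to 88.4, 91.7 and 87.5 CPM. The stress-inducible Ppp1r15a was at 24.8, 40.7 and 27.6 CPM against 24.6, 27.1 and 23.0 CPM. Its groups overlapped, with a log2 fold change of -0.32 ± 0.19 (adjusted p = 0.231), or 0.06 with library sizes alone.

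**Figure D3:**
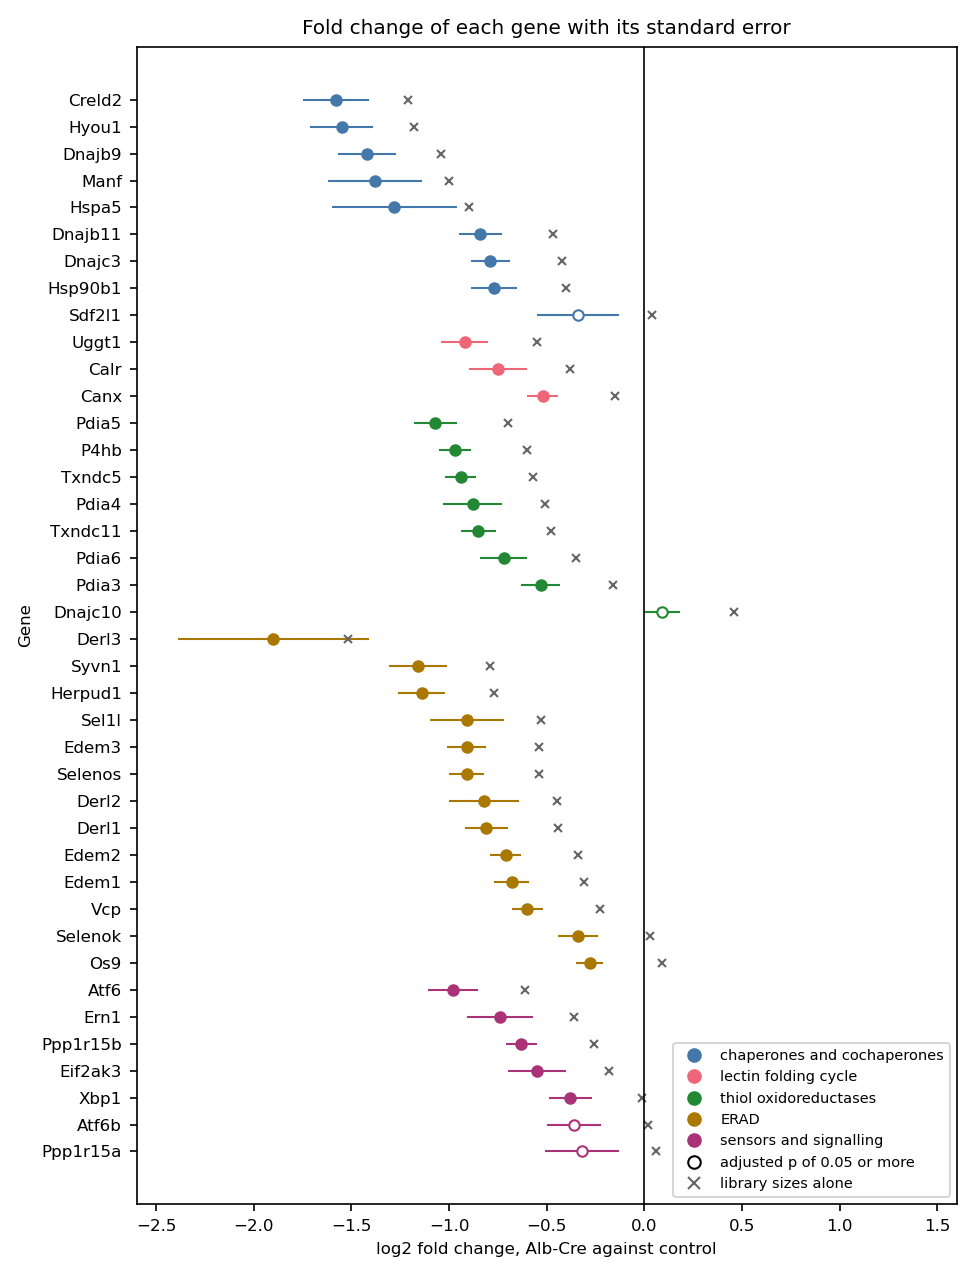
Log2 fold change of each of the 40 genes with TMM factors (circles, bars show the standard error, colours show roles, open circles did not pass) and with library sizes alone (crosses). All circles except that of Dnajc10 lie below 0, and 6 crosses lie above 0.

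Within each group the same animals tended to be high or low over these genes. Among controls, liver 2 had the highest CPM for 32 of the 40 genes (80.0%), against 34.5% of all tested genes. Among Alb-Cre livers, liver 2 was also highest for 32 of the 40 (80.0%, against 33.0% of all tested genes), and liver 3 was lowest for 30 of them (75.0%, against 34.5%). The labels give nothing that ties the animals numbered 2 to each other. Without both of them, an alternative chosen after seeing these values, 33 of the 40 were called lower (11.9% of all tested genes), 0 were called higher (13.3%), and the median was -0.84.

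Compared per length, as deposited FPKM, the level of the 40 genes spanned a wide range. In controls P4hb was the highest at 762 ± 29.3 FPKM, followed by Calr at 300 ± 42.7 FPKM (SD, n = 3 each), Hspa5 at 232 ± 84.0 FPKM and Hsp90b1 at 194 ± 11.5 FPKM. P4hb alone held 24.8% of the summed FPKM of the 40 genes in controls and 23.0% in Alb-Cre livers. Calr overlapped with Hspa5 and Hspa5 with Hsp90b1, while P4hb stood clear of the other genes in every control. Herpud1 (164 ± 14.2 FPKM), Pdia3 (142 ± 10.8 FPKM) and Pdia4 (123 ± 15.7 FPKM) came next. The lowest were Ppp1r15a at 8.47 ± 2.21 FPKM, Txndc11 at 5.67 ± 0.324 FPKM and Derl3 at 0.859 ± 0.417 FPKM. Of the 39 neighbouring pairs in this order, 25 overlapped in range, so much of the middle of the order is not resolved by 3 mice.

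The order was largely kept in the Alb-Cre livers at its ends, with P4hb first at 495 ± 7.43 FPKM and Calr second at 228 ± 37.8 FPKM. Within it Hyou1 moved from rank 20 to rank 32 and Creld2 from rank 18 to rank 23. Selenok moved up from rank 22 to rank 16 and Xbp1 from rank 21 to rank 17. Their own levels hardly changed, at means of 29.2 against 29.4 FPKM for Selenok and 29.3 against 28.7 FPKM for Xbp1. Others that moved up included Sdf2l1, from rank 31 to rank 26, and Ppp1r15b, from rank 30 to rank 24. Summed over the 40 genes, FPKM made up 0.744%, 0.841% and 0.755% of all deposited FPKM in the controls and 0.579%, 0.672% and 0.543% in the Alb-Cre livers. These groups did not overlap, and no test of the sum was made. Chaperones took 23.1%, 24.7% and 21.0% of the sum over the 40 genes in controls and 19.1%, 22.4% and 17.5% in Alb-Cre livers, with overlapping groups.

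**Figure D4:**
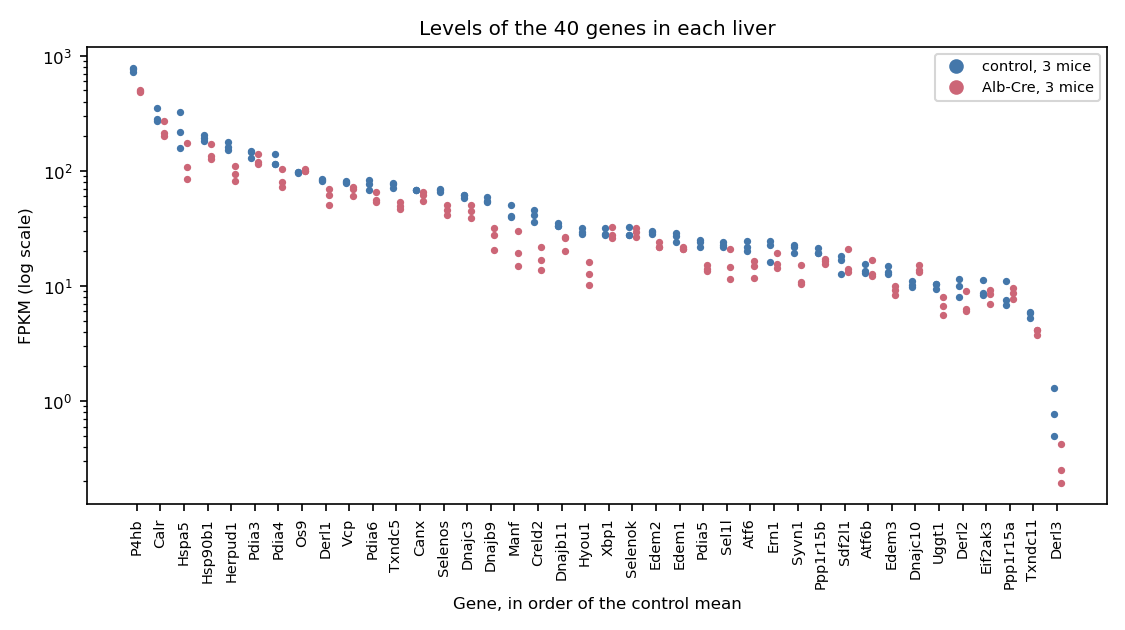
Deposited FPKM (log axis) of the 40 genes in each liver, ordered by the mean of the controls, with 1 point per mouse. Levels run from P4hb at 762 FPKM to Derl3 at 0.859 FPKM in control means, and the Alb-Cre points lie lower for most genes.

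Genes of the same pathways outside the 40 moved less uniformly. The 40 genes and these lists were chosen with earlier results of these data known, so nothing is drawn from that contrast. Of 31 tested other ER folding enzymes, 17 fell (18.0% of all tested genes) and 4 rose (19.9%), with a median of -0.37. Fkbp11, a prolyl isomerase of secretory cells, went from 33.8, 40.9 and 43.0 CPM to 11.5, 11.5 and 13.0 CPM (a fall of 1.71 ± 0.13). The cargo receptor Lman1 fell by 1.04 ± 0.09 and Serp1, a stress-associated protein of the translocon, by 1.23 ± 0.12. Selenom, a thioredoxin-like selenoprotein of the ER, rose by 2.22 ± 0.27 from 3.14, 1.85 and 1.76 CPM to 9.33, 12.4 and 9.64 CPM. Named after their values were seen, the ER peroxiredoxin Prdx4 fell by 0.53 ± 0.09 and the ER peroxidase Gpx8 rose by 1.55 ± 0.23. The Prdx4 call was lost with library sizes alone (-0.16, adjusted p = 0.158 in edgeR) and on FPKM (-0.18, adjusted p = 0.0799 in limma). With library sizes alone the list gave 7 lower (6.6% of all tested genes) and 8 higher (34.1%). Without Alb-Cre liver 2 the list gave 2 higher (14.8%).

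Of 32 other ERAD genes, 19 fell (18.0% of all tested genes) and 2 rose (19.9%), with a median of -0.37. With library sizes alone 7 fell (6.6%) and 4 rose (34.1%). Among the genes with the smallest p were the ubiquitin-like modifier Ufm1, the proteasome shuttle Rad23b and the p97-binding Ubxn4. They fell by 0.73 ± 0.08, 0.79 ± 0.09 and 0.91 ± 0.12. Erlin2 rose by 0.46 and Ankzf1 by 0.52, both picked with their values known. The Ankzf1 call was lost without Alb-Cre liver 1, which left 1 gene higher (15.2% of all tested genes).

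Of 24 other UPR signalling genes, 10 fell (18.0% of all tested genes) and 3 rose (19.9%), with a median of -0.25. With library sizes alone 4 fell (6.6%) and 6 rose (34.1%). Creb3l3, a liver-enriched relative of ATF6, was at 391, 316 and 413 CPM against 204, 167 and 205 CPM and fell by 0.96 ± 0.13, and Creb3 fell by 0.49 ± 0.08. The Creb3 call was lost with library sizes alone (-0.12, adjusted p = 0.340 in edgeR) and on FPKM (-0.14, adjusted p = 0.208 in limma). Atf3, a target of ATF4, went from 65.0, 127 and 46.0 CPM to 17.9, 23.0 and 13.6 CPM and fell by 2.13 ± 0.38. Atf4 and Ddit3, the transcription factors downstream of PERK, were named after their values were seen and fell by 0.96 ± 0.18 and 1.42 ± 0.28. Chac1, also a target of ATF4, was at 10.2, 35.6 and 11.7 CPM against 6.13, 9.18 and 3.78 CPM. It fell by 1.59 ± 0.53 (adjusted p = 0.0475), a call lost with library sizes alone (adjusted p = 0.101). The Chac1 call was also lost without control 2 or without any single Alb-Cre liver (adjusted p up to 0.138 in edgeR). Other stress-response genes of the list that ATF4 is known to induce did not pass. Asns was at 0.18 ± 0.17 (adjusted p = 0.448), or at 0.55 and called higher with library sizes alone (adjusted p = 0.0376). Sesn2 was at -0.18 ± 0.16 (adjusted p = 0.444), or at 0.20 with library sizes alone. Trib3 was at -0.66 ± 0.44 (adjusted p = 0.289) and Nupr1 at -1.52 ± 0.54 (adjusted p = 0.0590). Chac1 and these 4 genes were likewise picked with their values known. Crebrf, a negative regulator of the UPR, rose by 0.99 ± 0.12, from 17.9, 22.6 and 23.1 CPM to 41.1, 42.4 and 43.3 CPM. Ern2, an IRE1 relative of gut epithelium, was at 0 in all libraries.

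ER enzymes that modify and fold collagen went the other way. Of 18 genes, 10 rose (19.9% of all tested genes) and 1 fell (18.0%), with a median of 0.97. The lysyl hydroxylase Plod2 rose by 2.26 ± 0.15, from 3.26, 2.85 and 2.81 CPM to 14.5, 13.5 and 14.8 CPM, and the prolyl 3-hydroxylase family members P3h3 and P3h2 rose by 1.88 ± 0.16 and 1.61 ± 0.16. The collagen-binding prolyl isomerase Fkbp10 rose by 2.48 ± 0.22. P3h1, picked with its value known, fell by 0.75 ± 0.11. Without Alb-Cre liver 1, 2 genes of this list were called lower (13.4% of all tested genes).

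**Figure D5:**
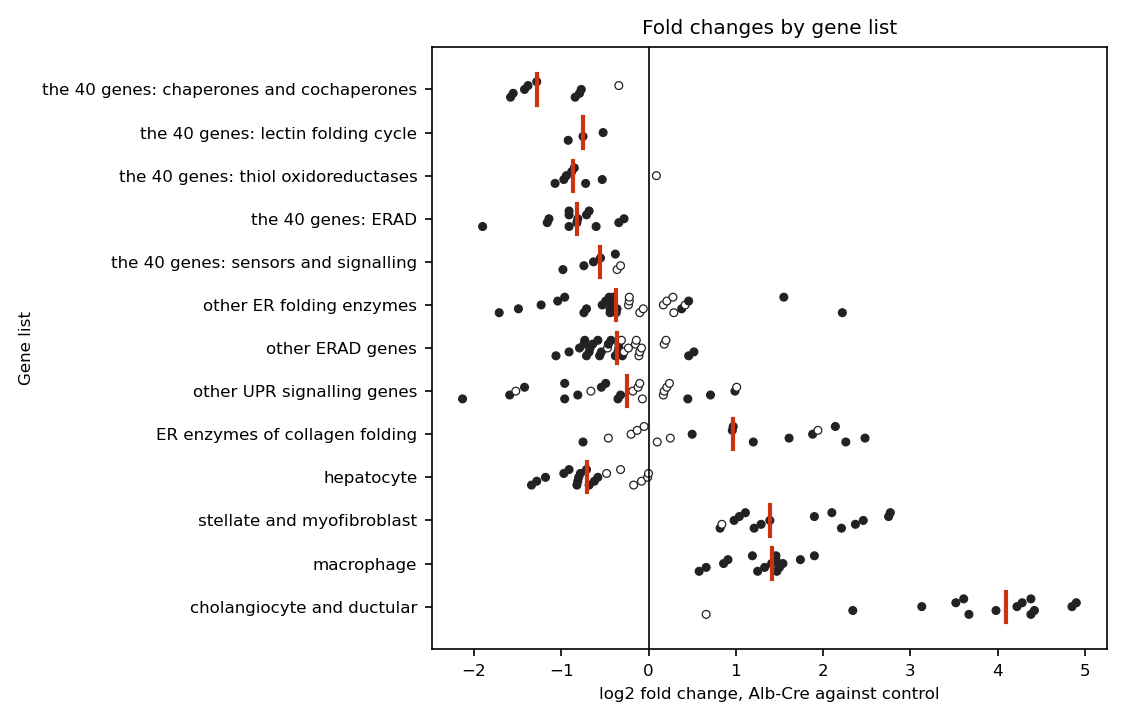
Log2 fold changes (1 point per gene, filled where the adjusted p was below 0.05) for the 5 roles of the 40 genes, 4 further ER lists and 4 cell type lists, with the median of each list as a red bar. P4ha3, at 0 in every control, is counted in the median of the collagen list and not drawn; the 5 role medians lie between -1.28 and -0.55 and the collagen list median at 0.97.

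Markers of liver cell types moved between the groups as well, beside 18.0% of all tested genes that fell and 19.9% that rose. Of 19 hepatocyte markers 13 fell and 0 rose. Their log2 fold changes had a median of -0.71 and ran from -1.34 to -0.0, so the fall was not uniform. The counts for this list were 10 lower (6.6% of all tested genes) and 1 higher (34.1%) with library sizes alone. In limma on FPKM plus 0.5 they were 9 lower (7.15%) and 0 higher (34.1%). The summed FPKM of these markers was 50562 to 58580 in controls and 38017 to 44796 in Alb-Cre livers. All 15 macrophage markers rose (median 1.41, summed FPKM 628 to 688 against 2092 to 2213), as did 14 of 15 stellate and myofibroblast markers (median 1.39, 124 to 130 against 461 to 560). Of 14 cholangiocyte and ductular markers 13 rose (median 4.10, 30.8 to 41.1 against 682 to 793). Of 12 pancreatic acinar genes 9 were at 0 in all libraries. In whole liver a smaller share of hepatocytes and less RNA of single genes per hepatocyte cannot be told apart. The part of these cell type differences in the ER results was not tested.

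The annotation places exons of 14 of the 40 genes over exons of another gene, and strand use in the authors' counting is not given in the sources used here. The pairs with the longest shared exons among protein-coding partners were Derl2 with Mis12, Txndc5 with Bmp6 and Vcp with 1700022I11Rik, so the values of these genes may hold some reads of the partner. The partners were at means of 22.2, 13.7 and 4.60 CPM over all libraries. Manf shares exon sequence with Dcaf1 (36.9 CPM) and Rbm15b (36.5 CPM), and Syvn1 with Mrpl49 (23.5 CPM). Bmp6 had a log2 fold change of 0.41, opposite in sign to Txndc5, and the other 5 named partners had negative ones.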

How the data were processed

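Poly(A) RNA of 6 livers had been sequenced, per the labels' protocols. The authors deposited, per the file headers, an estimated count and an FPKM value per gene and library. The submitters' processing notes name cutadapt 1.9, HISAT2 2.0.4, UMI-tools, StringTie 1.3.4d, edgeR, DESeq2 and mm9. Gene positions matched GENCODE M21 (GRCm38) for 94.2% of shared identifiers. Columns named wt were taken as the Prdx1(lox/lox) mice, the only genotype besides Alb-Cre. In control 1 low counts piled up at multiples of 4 (854 genes at 4, 280 at 3), and the reason was not tested.

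Counts were fitted with edgeR 4.0.16 in R 4.3.3 (filterByExpr with a minimum count of 10 and total of 15, TMM factors, glmQLFTest, two-sided), with Benjamini-Hochberg adjustment over 18931 genes and a threshold of 0.05. Standard errors were derived from the F statistic. Exact permutation of 3 against 3 cannot go below p = 0.1. Alternatives used DESeq2 1.42.0, limma 3.58.1 on log2(FPKM + 0.5) or log2(FPKM + 0.1), other scaling and filters, and omission of each library. The script was tested on simulated data. Members and lists were chosen with earlier results of these data known. All 40 genes were named, and in other lists up to 4 called genes with the smallest p. The result for 1 gene named by this rule is not reported here. Each library is labelled as 1 mouse.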

Additional observations from a re-analysis of the deposited data

How the results depend on the processing

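The count of 36 lower genes among the 40 was 30 to 36 when 1 library was left out (13.4% to 15.6% of all tested genes), and the median log2 fold change was -0.89 to -0.72. With library sizes alone, limma on FPKM plus 0.5 and limma on FPKM plus 0.1, the median was -0.44, -0.45 and -0.47, and 1 gene was called higher in each. In that order of settings, Sdf2l1 turned to 0.04, 0.00 and 0.00, Os9 to 0.09, 0.07 and 0.07, Ppp1r15a to 0.06, 0.06 and 0.06, and Selenok to 0.03, 0.01 and 0.01. Atf6b turned to 0.02 with library sizes alone. Of all tested genes, 34.1%, 34.1% and 33.9% were then higher and 6.6%, 7.15% and 7.13% lower. Of the other ER folding enzymes, 8, 7 and 7 were higher and 7, 7 and 7 lower. Of the other ERAD genes 7, 7 and 7 were lower, and 4 were higher with library sizes alone. Of the other UPR signalling genes 4, 4 and 4 were lower, and 6 were higher with library sizes alone and 5 with FPKM plus 0.1. Leaving out 1 library gave 2 to 4 higher folding enzymes, 1 to 2 higher ERAD genes and 1 to 2 lower collagen enzymes. In these fits 14.8% to 18.3% of all tested genes were higher and 13.4% to 15.6% lower. Without both animals numbered 2, an alternative chosen after seeing the data, 2 folding enzymes and 1 ERAD gene were higher (13.3% of all tested genes). The cause of these changes was not tested.

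With the replicate number as a block, 37 of the 40 genes were lower (16.9% of all tested genes), Atf6b being added. Deviations of same-numbered libraries correlated across genes at 0.0157, 0.0309 and 0.0353, so the numbers were not taken as pairing, although each library correlated best with its own number. With 3 mice per group, small changes such as those of Sdf2l1 and Ppp1r15a were not resolved from the spread between animals.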
